A study of Mus musculus with 6 samples.

Results

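The genes described here are the ABC transporters, the family whose proteins share an ATP-binding cassette. They were chosen by symbol alone, as every row of the transcript table named Abc, then a letter from a to g, then a digit, which gave 50 of 24054 rows. Most ABC proteins use the energy of ATP to carry lipids, drugs, metal cofactors or metabolites across a membrane, while the Abce and Abcf proteins have no membrane part and work on ribosomes. In blood cells the family is known for sterol export from macrophages, for the drug and dye efflux of stem cells, and for supplying heme and iron-sulfur clusters in red cell precursors.

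RNA had been sequenced from c-Kit+ splenocytes of 6 mice, 1 library per mouse. The labels' protocols describe the AML mice as moribund and the MPN mice as controls. The 3 mice labelled AML (acute myeloid leukaemia) were Flt3ITD/ITD, Dnmt3afl/- with MxCre. The 3 mice labelled MPN (myeloproliferative neoplasm) were Flt3ITD/ITD, Dnmt3afl/fl, and their titles name no Cre. All 6 mice thus carried the internal tandem duplication homozygously in Flt3, which encodes a cytokine receptor kinase of blood progenitors. Dnmt3a, which encodes a de novo DNA methyltransferase, was floxed on both alleles in MPN mice, and floxed on one and null on the other in AML mice. Mx-driven Cre acts in interferon-responsive cells, not in blood cells alone, and the labels do not say whether it was induced. Ages are not given in the sources used here. Genotype, Cre and disease changed together between the groups and cannot be told apart. The comparison asks which transcripts differ between AML and MPN.

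Relative depth ran from 0.744 to 1.30 in AML and from 0.943 to 1.05 in MPN, taking the median library as 1. Between 11853 and 12034 genes reached 1 TPM (a level scaled to transcript length and to the library total) in AML libraries, and between 11780 and 12032 in MPN libraries. Kit, the selection marker, had 99.2 to 130 TPM in AML mice and 145 to 152 TPM in MPN mice. Dnmt3a had 11.5 to 13.5 TPM in AML mice and 29.3 to 33.9 TPM in MPN mice. By Xist, at 186 TPM in AML replicate 1 and 194 TPM in AML replicate 2, those mice were female, and the other 4 mice, with 0.06 TPM or less, were not. Per the file headers, 5 libraries shared a sequencing run and MPN replicate 1 came from a different one. Nothing further is stated on litters or batches.

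The family as a whole kept about the same share of all transcripts in both groups. Its 50 members summed to 976, 884 and 866 TPM in AML replicates 1 to 3, and to 1007, 925 and 781 TPM in MPN replicates 1 to 3, so that the groups overlapped. The make-up within that sum differed. Among the genes with high means in AML mice were Abce1 at 118 TPM, Abcf1 at 112 TPM, Abcf2 at 96.6 TPM and Abca7 at 59.0 TPM. Among those in MPN mice were Abcf1 at 92.1 TPM, Abce1 at 91.5 TPM, Abca3 at 69.5 TPM and Abcf2 at 65.1 TPM. Neighbours in these orders mostly lay within the spread between mice, as Abce1 (± 14.3, SD, n = 3) and Abcf1 (± 10.8) did in AML. Abcg3 ranked 25 in AML and 6 in MPN, and Abca9 ranked 37 in AML and 23 in MPN.

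**Figure D1:**
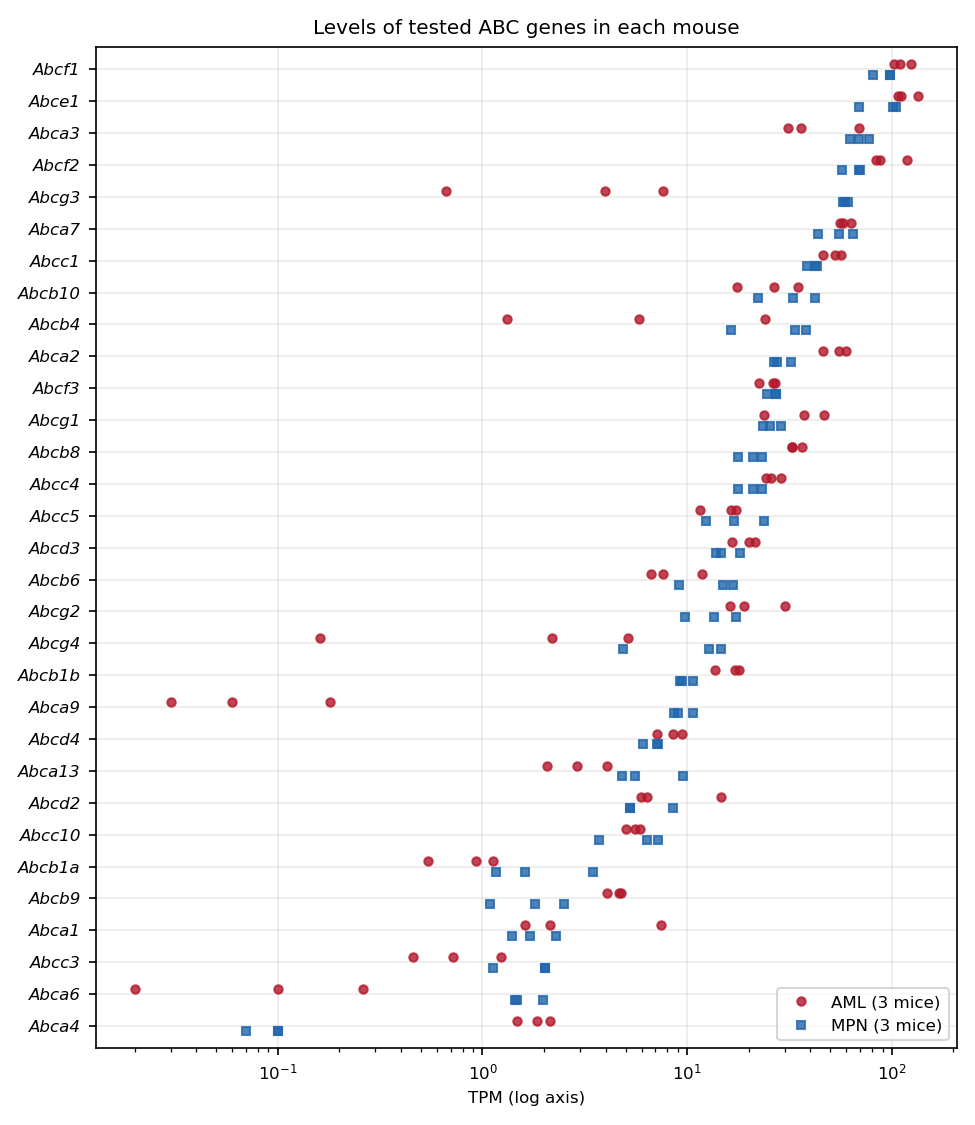
Level of 31 tested ABC genes in each mouse, in TPM on a log axis, with AML mice as circles and MPN mice as squares, and genes ordered by their MPN mean. Most genes lie between 1 and 134 TPM with AML and MPN close together, while Abcg3, Abca9 and Abca6 sit far lower in AML and Abca4 sits higher.

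Of the 50 members, 33 reached 1 TPM in at least 3 of the 6 libraries and were tested with limma on log2(TPM + 1), as were 12223 genes in all. Past a Benjamini-Hochberg adjusted p of 0.05 over all these genes were 6 members higher in AML, namely Abca4, Abcb9, Abca2, Abcb8, Abcb1b and Abcf2, and 4 members lower in AML, namely Abcg3, Abca9, Abca6 and Abca13. That is 10 of 33 members, beside 30.1% of all tested genes, of which 20.1% were higher and 10% lower, so the family's share was near the background. The median log2 fold change of AML over MPN was 0.13 for the 33 members and 0.13 for all tested genes. Apart from the 10 called, 6 members had an unadjusted p under 0.05. Over all tested genes 43.6% had one, a share that includes the called genes and so is not like the 6. Without regard to sign the median was 0.59 for the members and 0.35 for all tested genes. The groups did not overlap for 16 of the 33 members, or 48.5%, beside 50.9% of all tested genes. Within the run that held 5 libraries, without MPN replicate 1, 4 members were higher and 3 lower, beside 18.6% of genes called. Without MPN replicate 2, 3 members were higher and 3 lower, beside 16.4% of genes called. Because several members passed the filter through their higher group only, these counts describe the tested members and not the family.

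**Figure D2:**
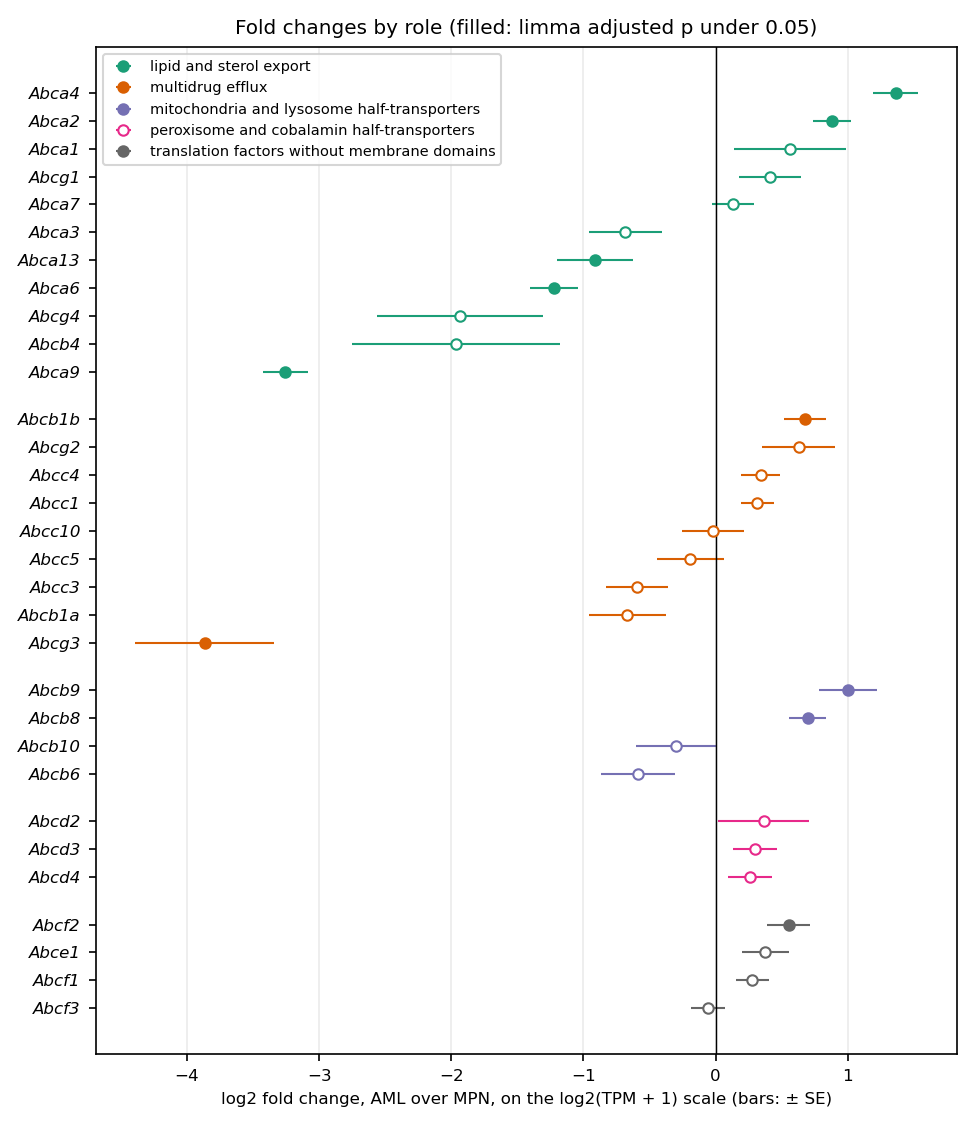
Log2 fold change of AML over MPN on the log2(TPM + 1) scale for 31 tested ABC genes, with bars for the standard error, grouped by role, and filled where the limma adjusted p was under 0.05. Abcg3 and Abca9 lie farthest to the left at -3.87 and -3.26, and Abca4 lies farthest to the right at 1.36.

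The stretches of DNA just before the starts of 5 of the called genes are shown because CpG dinucleotides, the sites that Dnmt3a methylates, differ in number among them. Each line gives the 250 bases before the RefSeq start on GRCm38.p6, 5′ to 3′ on the gene's strand, with each CG in capitals. By the GENCODE gene positions given further below, Abca9 and Abca4 start inside these windows, and Abca2 starts past the end of its own. Methylation was not measured here.
Abcg3 (chr5:104982718-104982967, minus strand): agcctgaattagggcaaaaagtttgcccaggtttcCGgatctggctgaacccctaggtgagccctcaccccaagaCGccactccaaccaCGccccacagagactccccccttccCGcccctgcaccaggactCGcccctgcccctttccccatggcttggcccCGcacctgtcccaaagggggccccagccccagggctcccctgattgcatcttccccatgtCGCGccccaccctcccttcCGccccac
Abca9 (chr11:110168154-110168403, minus strand): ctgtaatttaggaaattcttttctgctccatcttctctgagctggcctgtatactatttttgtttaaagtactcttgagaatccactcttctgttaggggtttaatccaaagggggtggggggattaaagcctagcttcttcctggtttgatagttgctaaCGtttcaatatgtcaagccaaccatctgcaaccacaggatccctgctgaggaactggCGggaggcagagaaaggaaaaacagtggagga
Abca4 (chr3:122044210-122044459, plus strand): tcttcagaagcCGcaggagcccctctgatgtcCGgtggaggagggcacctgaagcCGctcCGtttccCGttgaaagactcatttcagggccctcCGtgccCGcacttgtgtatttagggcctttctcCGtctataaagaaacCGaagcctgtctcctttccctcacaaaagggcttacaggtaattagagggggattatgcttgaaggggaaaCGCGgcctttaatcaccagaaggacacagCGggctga
Abca2 (chr2:25428349-25428598, plus strand): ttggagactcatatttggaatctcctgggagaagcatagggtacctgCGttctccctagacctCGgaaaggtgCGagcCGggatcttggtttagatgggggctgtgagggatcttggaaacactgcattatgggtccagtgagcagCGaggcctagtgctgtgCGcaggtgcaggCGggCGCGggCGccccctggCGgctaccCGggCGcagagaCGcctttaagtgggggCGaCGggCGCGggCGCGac
Abcb1b (chr5:8797897-8798146, plus strand): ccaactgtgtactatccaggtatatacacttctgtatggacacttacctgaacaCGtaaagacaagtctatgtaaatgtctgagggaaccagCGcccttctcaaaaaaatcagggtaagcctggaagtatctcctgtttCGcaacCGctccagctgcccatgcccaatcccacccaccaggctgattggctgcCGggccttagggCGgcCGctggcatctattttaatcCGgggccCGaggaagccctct

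Abca9 held 2 CpGs in this window and Abcg3 held 9, while Abca4 held 12, Abca2 held 20 and Abcb1b held 9. Windows were listed for 38 of the 50 members, and where a gene had several the first listed was counted, with a median of 12 CpGs, beside a median of 6 over the 27025 genes with a window. Counted so, the 5 higher members with a window had 9 to 20 CpGs and the 3 lower ones had 2 to 9. The 15 tested members that were not called had 0 to 35 CpGs, with a median of 18, a range that spans both. Abcf2, at 13 CpGs in its first window, had 25 in its other one. These are counts in a fixed window and say nothing of the genes' methylation. On either strand, the letters CACGTG (the E-box read by Myc) stood in 5 of the 38 windows, those of Abca1, Abca15, Abca8a, Abcc4 and Abcf1, or 13.2%, beside 6.05% of all windows. The spaced repeat of interferon response elements (GAAA, any pair of bases, GAAA) stood in 0 of the 38, beside 3.04% of all windows. TATAAA stood in 5 of the 38, or 13.2%, beside 13.0% of all windows.

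In the group listed under lipid and sterol export, Abca9 and Abca6 fell in AML to near 0. Abca13 fell to about 45.3% of its MPN level, and Abca2 and Abca4 rose. Not every gene listed there is a settled exporter. Of the 18 genes in this role group, 11 were tested, 2 rose, 3 fell and 6 did not pass. Abca9, whose human counterpart responds to cholesterol in macrophages, had 0.18, 0.06 and 0.03 TPM in AML replicates 1 to 3, against 10.7, 8.97 and 8.59 TPM in MPN replicates 1 to 3. All AML mice lay far below all MPN mice, at 0.954% of the MPN mean. The log2 fold change was -3.26 ± 0.17 (SE, limma adjusted p = 0.000114). Abca6, which in humans is likewise regulated by cholesterol, had 0.26, 0.10 and 0.02 TPM in AML mice, against 1.98, 1.47 and 1.44 TPM in MPN mice. Again the groups did not overlap, and the log2 fold change was -1.22 ± 0.18 (adjusted p = 0.00316). Both genes passed the filter through the MPN mice alone.

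Abca9 (chromosome 11, 110100749 to 110168196 on GRCm38, minus strand) and Abca6 (110176820 to 110251776, minus strand) lie 8.62 kb apart in a run of related genes. Next in that run, Abca5 had 0.19, 0.31 and 0.29 TPM in AML mice and 1.01, 0.81 and 0.87 TPM in MPN mice, without overlap, and was too low to be tested. Abca8a and Abca8b, on the other side of Abca9, reached at most 0.1 TPM in any mouse. The levels of Abca5, Abca6 and Abca9 were thus lower in every AML mouse than in every MPN mouse. Over all tested genes, in either direction, the groups did not overlap for 50.9%, so this is a description of these genes. Map2k6, the next tested gene, had 7.59 to 19.2 TPM in AML mice and 19.1 to 29.0 TPM in MPN mice and did not pass (adjusted p = 0.0837).

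Abca13, a very large protein of unsettled substrate (chromosome 11, 9191942 to 9684259, plus strand), had 2.06, 4.07 and 2.88 TPM in AML mice, against 9.52, 5.54 and 4.83 TPM in MPN mice. MPN replicate 1 was the highest, and the groups did not overlap. Its log2 fold change was -0.91 ± 0.29 (adjusted p = 0.0478). That call stood just inside the threshold and ended without AML replicate 1 or 3 (adjusted p = 0.109 and 0.0812), without MPN replicate 1, 2 or 3 (0.131, 0.0946 and 0.0626), and in the RPKM table (0.0524). It also ended with a pseudocount of 0.1 or 5 (0.0502 and 0.0517), with no filter (0.0891) and with array weights (0.0675).

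Abca2, a lysosomal and endosomal protein of sterol and sphingolipid handling (chromosome 2, 25428703 to 25448540, plus strand), had 60.0, 55.5 and 46.0 TPM in AML mice, against 32.2, 27.4 and 26.6 TPM in MPN mice. Every AML mouse lay above every MPN mouse. Its log2 fold change was 0.88 ± 0.14 (adjusted p = 0.00484). Abca4, the flippase that clears retinal adducts from photoreceptor membranes (chromosome 3, 122044443 to 122180123, plus strand), had 1.84, 2.13 and 1.47 TPM in AML mice, against 0.10, 0.10 and 0.07 TPM in MPN mice. The AML mice were low but all above the MPN mice, which were near 0, and the gene passed the filter through the AML mice alone. On the log2 scale the difference was 1.36 ± 0.17 (adjusted p = 0.00161).

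The best known sterol exporters did not pass. Abca1, which loads cholesterol onto apolipoprotein A-I, had 7.41, 2.14 and 1.61 TPM in AML mice and 2.29, 1.40 and 1.70 TPM in MPN mice, so that AML replicate 1 alone stood apart (adjusted p = 0.339). Abcg1, which passes cholesterol to high-density lipoprotein, had 46.4, 23.9 and 37.2 TPM in AML mice and 25.4, 23.5 and 28.6 TPM in MPN mice (adjusted p = 0.218). It passed without AML replicate 2, at a log2 fold change of 0.67 (adjusted p = 0.0334). Abca7, an exporter of phospholipids that also serves phagocytosis, had 56.0 to 63.4 TPM in AML mice and 43.5 to 64.9 TPM in MPN mice (adjusted p = 0.554). Abca3, which fills the surfactant stores of the lung with phospholipid, had 31.2, 36.2 and 69.1 TPM in AML mice and 77.4, 69.0 and 62.2 TPM in MPN mice. AML replicate 3 lay among the MPN mice, and the gene did not pass (log2 fold change -0.68 ± 0.28, adjusted p = 0.102). Without AML replicate 3 it did, at -1.02 (adjusted p = 0.00425), and with array weights at -0.67 (0.0257). With a term for sex, which compares AML replicate 3 alone with MPN, the log2 fold change was -0.0035 (adjusted p = 0.993).

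The partners of sterol export, a list of receptors, carriers and enzymes around the sterol-sensing liver X receptors, were lower in AML where they passed, except Lpcat3, an enzyme that remodels phospholipids. Of 20 tested, 1 rose and 4 fell, beside 20.1% and 10% of all tested genes. Of the 4 that fell, 1 passed the filter through the MPN mice alone. Another 15 did not pass, and the median log2 fold change of the 20 was 0.04, beside 0.13 for all genes. Npc2, which hands cholesterol out of lysosomes, averaged 118 ± 15.1 TPM in AML mice and 238 ± 14.6 TPM in MPN mice (SD, n = 3 each; adjusted p = 0.00159). Pltp, a phospholipid carrier of plasma, averaged 0.460 ± 0.503 TPM in AML mice and 6.88 ± 3.59 TPM in MPN mice (adjusted p = 0.00367). Apoe, the acceptor apolipoprotein made by macrophages, averaged 25.6 ± 6.14 TPM in AML mice and 77.8 ± 20.8 TPM in MPN mice (adjusted p = 0.00427).

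In the multidrug group Abcg3 fell to 6.86% of its MPN level and Abcb1b rose, while 7 of the 9 tested genes did not pass. Abcg3, a rodent relative of Abcg2 of unsettled substrate (chromosome 5, 104935057 to 104982718, minus strand), had 0.66, 7.60 and 3.98 TPM in AML replicates 1 to 3, against 57.9, 59.1 and 61.4 TPM in MPN replicates 1 to 3. The MPN mice were close together, and the AML mice spread widely below them. The log2 fold change was -3.87 ± 0.53 (adjusted p = 0.00239), and the gene passed under every alternative that was run. In the RPKM table, where the same libraries were quantified by another route, its AML mean was 6.81% of the MPN mean.

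Abcg3 lies beside a cluster of Gbp genes, the interferon-induced guanylate-binding proteins that act against microbes inside cells. All 5 of the tested Gbp genes within 300 kb, a window chosen after its values were seen, were lower in AML, beside 10% of all tested genes. Of these, Gbp8, Gbp4, Gbp10 and Gbp6 stayed under 1 TPM in every AML mouse and passed the filter through the MPN mice alone, so that the count is a description. The nearest, Gbp8, 31.4 kb away, had 0.32, 0.85 and 0.62 TPM in AML mice, against 13.1, 30.0 and 20.3 TPM in MPN mice (log2 fold change -3.73, adjusted p = 0.000307). Gbp9 and Gbp4 had log2 fold changes of -4.42 and -4.26, and Gbp10 and Gbp6, farther off, of -1.66 and -1.78. Zfp951, the tested gene on the other side, did not pass at -0.80 (adjusted p = 0.0668). Around the other called members, beside 20.1% of all tested genes higher and 10% lower, 6 of 26 tested genes within 300 kb rose and 2 fell around Abca2, 4 of 12 rose around Abcb9, 3 of 13 rose around Abcf2 and 2 of 12 rose around Abcb8. Of the rest, 1 of 5 rose around Abca4, 1 of 6 fell around Abcb1b, 0 of 1 was called around Abca13, and around Abca6 and Abca9 the gene called was the other of the pair, 1 of 2 for each. Abcb8 and Abcf2 lie 155 kb apart, so each was among the genes that rose around the other, and Kcnh2 was counted around both.

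**Figure D3:**
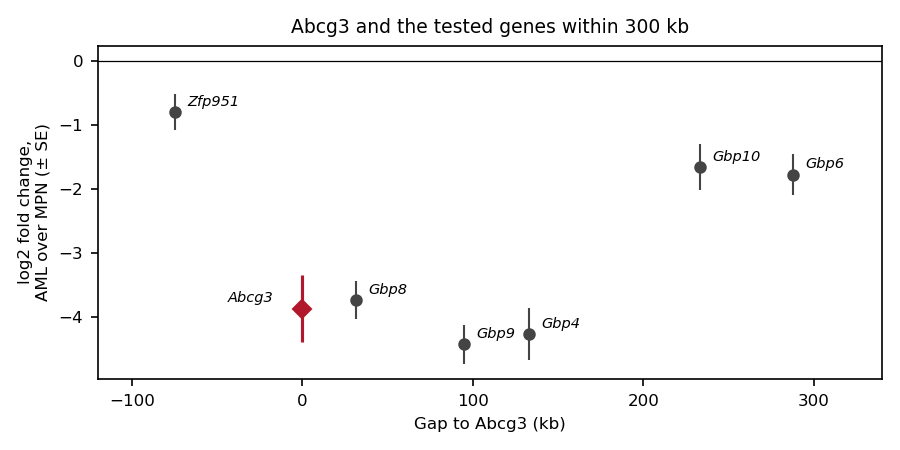
Log2 fold change of AML over MPN on the log2(TPM + 1) scale, with standard errors, for Abcg3 (diamond, at 0) and the tested genes within 300 kb (circles), against the gap to Abcg3 in kb. Gbp8, Gbp9 and Gbp4 lie between -4.42 and -3.73, close to Abcg3 at -3.87, and Zfp951 lies at -0.80.

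Abcb1b and Abcb1a both encode P-glycoprotein, the drug efflux pump that a single gene encodes in humans, and their fold changes had opposite signs. Abcb1b (chromosome 5, 8798147 to 8866315, plus strand) had 17.8, 17.2 and 13.7 TPM in AML mice, against 9.45, 9.22 and 10.6 TPM in MPN mice. The groups did not overlap, and the log2 fold change was 0.67 ± 0.16 (adjusted p = 0.0182). The call was lost when AML replicate 2 was left out (adjusted p = 0.0563), and likewise for MPN replicate 1 or 2 (0.0645 and 0.0838). Abcb1a, 49.6 kb away, had 1.12, 0.93 and 0.54 TPM in AML mice, against 1.17, 1.62 and 3.45 TPM in MPN mice. It did not pass (log2 fold change -0.67 ± 0.29, adjusted p = 0.119), and the difference in direction was not tested. Of the stretches of 75 bases, the read length, in Abcb1b transcripts of GENCODE M21, 12.4% also occur in another gene's transcripts, nearly all in Abcb1a, so reads could be split wrongly between the pair. An antisense gene, Gm5106, also overlaps Abcb1b, and the sources used here do not say whether counting used strand.

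None of the other tested genes in the multidrug group passed. Abcg2, which expels dyes and porphyrins and marks stem cells by dye exclusion, had 30.1, 19.0 and 16.1 TPM in AML mice and 17.3, 13.6 and 9.80 TPM in MPN mice (log2 fold change 0.63 ± 0.28, adjusted p = 0.122). Abcc1, an exporter of glutathione conjugates and leukotriene C4, had 56.7, 45.9 and 52.7 TPM in AML mice and 43.2, 42.1 and 38.7 TPM in MPN mice. Every AML mouse lay above every MPN mouse, yet the difference of 0.32 ± 0.12 on the log2 scale did not pass (adjusted p = 0.0906). Abcc4, an exporter of cyclic nucleotides and prostaglandins, likewise had 24.3, 28.8 and 25.7 TPM in AML mice and 23.1, 20.9 and 17.8 TPM in MPN mice (0.34 ± 0.15, adjusted p = 0.117), and it passed with array weights (0.0277). Abcc3, which exports glucuronides and bile salts, had 0.46, 1.23 and 0.72 TPM in AML mice and 2.02, 1.13 and 2.01 TPM in MPN mice (-0.60 ± 0.23, adjusted p = 0.0926). Abcc5 averaged 15.1 TPM in AML and 17.7 TPM in MPN, and Abcc10 averaged 5.47 TPM in AML and 5.73 TPM in MPN, with adjusted p of 0.593 and 0.957.

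Genes around drug and leukotriene export moved in both directions. In the list of oxidative and xenobiotic response genes, 22 were tested, 5 rose and 2 fell, beside 20.1% and 10% of all tested genes. Another 15 did not pass, and the median of the 22 was 0.24. Txnrd1, a thioredoxin reductase, averaged 104 ± 16.0 TPM in AML mice and 46.1 ± 5.64 TPM in MPN mice (adjusted p = 0.00189). Srxn1, which repairs peroxiredoxins, averaged 8.93 ± 0.540 TPM in AML mice and 2.31 ± 0.856 TPM in MPN mice (adjusted p = 0.00251), and Hmox1, which breaks down heme, averaged 9.40 ± 2.26 TPM in AML mice and 37.2 ± 13.5 TPM in MPN mice (adjusted p = 0.00328). In the list of leukotriene, prostaglandin and sphingosine phosphate genes, 18 were tested, 5 rose and 4 fell, beside the same 20.1% and 10%. Another 9 did not pass, and the median of the 18 was -0.21. Spns2, an exporter of sphingosine phosphate outside the ABC family, averaged 152 ± 65.7 TPM in AML mice and 9.25 ± 3.17 TPM in MPN mice (adjusted p = 0.000349). Hpgd, which inactivates prostaglandins, averaged 0.130 ± 0.0889 TPM in AML mice and 5.37 ± 1.14 TPM in MPN mice (adjusted p = 0.000277). Ggt1, which trims leukotriene C4, averaged 3.02 ± 1.12 TPM in AML mice and 0.270 ± 0.104 TPM in MPN mice (adjusted p = 0.00255). Hpgd passed the filter through the MPN mice alone and Ggt1 through the AML mice alone.

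**Figure D4:**
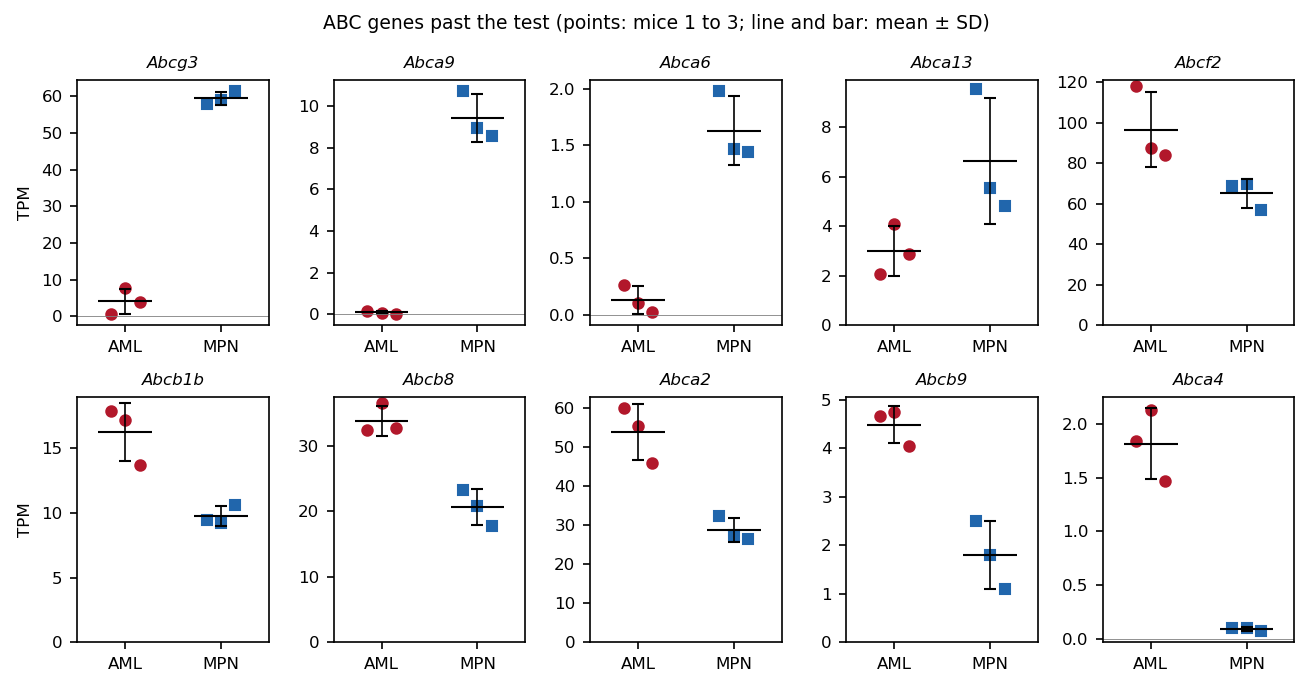
TPM of the 10 ABC genes past the test in each of the 3 AML mice (circles, left) and 3 MPN mice (squares, right), with a line for the mean and a bar for the SD. Each panel has its own axis with 0 on it. In all 10 genes the AML mice lie entirely above or entirely below the MPN mice, as at 0.66 to 7.60 TPM against 57.9 to 61.4 TPM for Abcg3. The genes were picked by the test, which favours such a gap, and the groups did not overlap for 50.9% of all tested genes.

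Among the Abcb genes of mitochondria and lysosomes, Abcb8 and Abcb9 rose. Abcb8, an inner membrane protein of mitochondria linked to iron export in the mouse heart (chromosome 5, 24393663 to 24410054, plus strand), had 32.4, 36.5 and 32.7 TPM in AML mice, against 23.3, 20.9 and 17.8 TPM in MPN mice. The groups did not overlap, and the log2 fold change was 0.70 ± 0.14 (adjusted p = 0.0108). Abcb9, a lysosomal peptide transporter close to the antigen-processing pair Tap1 and Tap2 (chromosome 5, 124061530 to 124095798, minus strand), had 4.66, 4.74 and 4.05 TPM in AML mice, against 2.50, 1.81 and 1.09 TPM in MPN mice. All AML mice again lay above all MPN mice. The log2 fold change was 1.0 ± 0.22 (adjusted p = 0.0148), a call that ended without MPN replicate 2 (adjusted p = 0.0528). Tap1 itself, an ABC protein not named Abc, averaged 201 ± 42.5 TPM in AML and 315 ± 68.2 TPM in MPN and narrowly missed the threshold (adjusted p = 0.0504). It passed with median scaling (0.0496), quantile normalization (0.0329), the RPKM table (0.0482), array weights (0.0154) and without AML replicate 3 (0.0328). Tap2 averaged 223 ± 36.1 TPM in AML mice and 201 ± 38.2 TPM in MPN mice (adjusted p = 0.528), and Cftr, the chloride channel of the family, averaged 0.13 TPM in AML and 0.12 TPM in MPN and was not tested.

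Abcb10 and Abcb6, which serve heme, did not pass and spread widely between mice. Abcb10, which supports heme synthesis in red cell precursors, had 34.8, 26.4 and 17.4 TPM in AML mice and 42.2, 33.0 and 22.1 TPM in MPN mice (adjusted p = 0.471). Abcb6, a porphyrin transporter, had 11.8, 7.60 and 6.64 TPM in AML mice and 16.7, 14.9 and 9.08 TPM in MPN mice (adjusted p = 0.148), and with array weights it passed (log2 fold change -0.88, adjusted p = 0.00510). Of the 75-base stretches in Abcb6 transcripts, 86.4% also occur in the read-through gene Gm29253, so that level is uncertain. In the list of heme and iron-sulfur partners, 23 were tested, 2 rose and 3 fell, beside 20.1% and 10% of all tested genes. Another 18 did not pass, and the median of the 23 was -0.13. Fdx1l, a ferredoxin, averaged 51.0 ± 3.15 TPM in AML mice and 33.7 ± 0.749 TPM in MPN mice (adjusted p = 0.00772). Uros, an enzyme of heme synthesis, averaged 10.4 ± 3.31 TPM in AML mice and 26.0 ± 6.14 TPM in MPN mice (adjusted p = 0.0109), and Iscu, the scaffold for iron-sulfur clusters, averaged 95.7 ± 4.03 TPM in AML mice and 130 ± 7.34 TPM in MPN mice (adjusted p = 0.0156).

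Abcb4 and Abcg4 had large but uneven differences. Abcb4, the phosphatidylcholine exporter of bile (also named for multidrug resistance), had 23.9, 5.83 and 1.32 TPM in AML mice, against 38.1, 33.7 and 16.4 TPM in MPN mice. AML replicate 1 lay above MPN replicate 3, so the groups overlapped, and the gene did not pass (log2 fold change -1.97 ± 0.79, adjusted p = 0.0966). It passed without AML replicate 1, at -2.85 (adjusted p = 0.00956), and with array weights at -2.61 (0.00272). Abcg4, a sterol exporter close to Abcg1 that in mouse restrains megakaryocyte progenitors, had 5.13, 2.19 and 0.16 TPM in AML mice, against 14.7, 12.7 and 4.87 TPM in MPN mice. It narrowly missed the threshold (-1.93 ± 0.62, adjusted p = 0.0528). It passed without AML replicate 1, at -2.49 (0.0184), and under array weights, RPKM values, quantile normalization, median scaling or a pseudocount of 5 (adjusted p of 0.0020 to 0.0445).

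The mice stood in the same order for Abcb4, Abcg4, Abcb10 and Abcb6 as for a list of 18 erythroid markers. Those markers summed to 1326, 452 and 181 TPM in AML replicates 1 to 3, and to 1747, 1583 and 832 TPM in MPN replicates 1 to 3. That order within each group held for 11 of the 33 tested members and for 15.4% of all tested genes. Relative depth had the same order, at 1.30, 1.01 and 0.744 in AML mice and 1.05, 0.993 and 0.943 in MPN mice. The part of red cell precursors or of depth in these levels was not tested. In bulk samples, fewer cells of a type and less RNA per cell cannot be told apart.

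**Figure D5:**
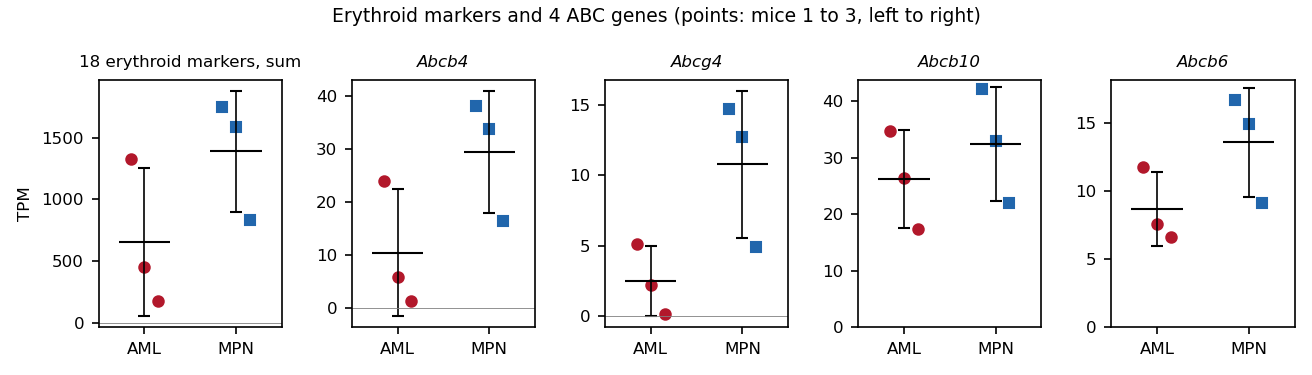
Summed TPM of 18 erythroid markers and TPM of Abcb4, Abcg4, Abcb10 and Abcb6 in AML mice (circles, left) and MPN mice (squares, right), replicates 1 to 3 from left to right in each group, with the mean and SD. Within each group replicate 1 is the highest and replicate 3 the lowest in every panel, and for Abcb4 the values are 23.9, 5.83 and 1.32 TPM in AML mice and 38.1, 33.7 and 16.4 TPM in MPN mice.

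Abcd2, Abcd3 and Abcd4, which belong to the peroxisome and cobalamin transporters of the family, did not pass. Abcd2, a peroxisomal carrier of fatty acids, had 6.37, 14.7 and 5.96 TPM in AML mice and 8.57, 5.28 and 5.28 TPM in MPN mice. Abcd3, a carrier of branched fatty acids and bile acid precursors, averaged 19.3 ± 2.51 TPM in AML and 15.5 ± 2.33 TPM in MPN, and Abcd4, the lysosomal cobalamin exporter, averaged 8.37 ± 1.15 TPM in AML mice and 6.81 ± 0.636 TPM in MPN mice (adjusted p of 0.445, 0.206 and 0.271 for Abcd2, Abcd3 and Abcd4). Of 24 tested genes for peroxisome import and β-oxidation, 4 rose and 0 fell, beside 20.1% and 10% of all tested genes. Another 20 did not pass, and the median of the tested genes in the list was 0.14. Pex7, an import receptor, averaged 35.6 ± 3.57 TPM in AML mice and 20.8 ± 2.07 TPM in MPN mice (adjusted p = 0.00725), and Pex14, part of the docking site for import, averaged 30.0 ± 3.68 TPM in AML mice and 21.1 ± 1.86 TPM in MPN mice (0.0387). The Pex14 call was lost on leaving out each mouse in turn, AML replicate 2 excepted (adjusted p of 0.0534 to 0.147), and with median scaling (0.0829) and quantile normalization (0.0814).

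The 4 translation genes of the family were its most abundant group in both AML and MPN. They summed to 398, 335 and 321 TPM in AML mice, or 38.6% of the family, and to 298, 296 and 231 TPM in MPN mice, or 30.4% of the family. Every AML mouse lay above every MPN mouse in that sum. Abcf2 (chromosome 5, 24565345 to 24577467, minus strand) had 118, 87.6 and 84.1 TPM in AML mice, against 68.7, 69.8 and 56.8 TPM in MPN mice. Its log2 fold change was 0.55 ± 0.16 (adjusted p = 0.0380). That call was lost on leaving out each mouse in turn, AML replicate 3 excepted (adjusted p of 0.0584 to 0.114), with no filter (0.0555) and without the trend (0.0531).

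Abce1, which splits ribosomes after a round of translation, had 134, 111 and 108 TPM in AML mice, against 104, 101 and 69.4 TPM in MPN mice. Abcf1, which takes part in starting translation, had 124, 110 and 102 TPM in AML mice, against 97.7, 98.0 and 80.6 TPM in MPN mice. The groups did not overlap for either gene, but neither passed. Abce1 differed by 0.37 ± 0.18 on the log2 scale (adjusted p = 0.148) and Abcf1 by 0.28 ± 0.13 (adjusted p = 0.132). Abcf3 had 22.5, 26.4 and 27.0 TPM in AML mice and 27.2, 27.1 and 24.6 TPM in MPN mice (adjusted p = 0.761). Of 19 tested partners in ribosome recycling and in starting translation, 6 rose and 0 fell, beside 20.1% and 10% of all tested genes. Another 13 did not pass, and the median of the tested partners was 0.40. Pelo, which with Abce1 frees stalled ribosomes, averaged 30.0 ± 3.27 TPM in AML mice and 19.0 ± 1.08 TPM in MPN mice (adjusted p = 0.0135), a call that ended without MPN replicate 2 (0.0600). Denr, a recycling factor, averaged 59.1 ± 3.47 TPM in AML mice and 39.0 ± 5.28 TPM in MPN mice (0.0158), and Gspt1, a release factor, averaged 78.4 ± 8.70 TPM in AML mice and 50.5 ± 8.01 TPM in MPN mice (0.020).

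The remaining 17 members were too low to be tested. Of these, 14 stayed below 1 TPM in every mouse, among them Abca12, Abca14, Abca15, Abca16 and Abcb5, which were listed at 0 in all 6 mice. Abcc9, a subunit of potassium channels gated by ATP, had 0.33, 0.09 and 0.14 TPM in AML mice and 0.16, 0.24 and 0.25 TPM in MPN mice, and Abcc8, its relative of the pancreas, reached at most 0.02 TPM. Of the pore subunits they regulate, Kcnj11 had a mean of 1.48 TPM in AML, with 3.72 TPM in replicate 1, and 0.00667 TPM in MPN, and Kcnj8 averaged 0.170 TPM in AML and 0.267 TPM in MPN, neither high enough to be tested. The other members above 1 TPM in any mouse were Abca5, given above, Abcc2 and Abca17. Abcc2, an exporter of bilirubin conjugates, had 0.66, 1.33 and 0.81 TPM in AML mice and 0.89, 0.57 and 0.51 TPM in MPN mice. Abca17 had 0.10, 0.22 and 0.22 TPM in AML mice and 0.87, 1.43 and 0.38 TPM in MPN mice, without overlap. Abcg5 and Abcg8, the sterol exporters of bile and gut, reached at most 0.04 TPM, and Abcb11, the bile salt pump of the liver, likewise reached at most 0.04 TPM. Abcc6 and Abcc12 reached at most 0.01 and 0.02 TPM in any mouse.

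Marker genes of several cell types differed in level between the groups. The counts below stand beside 20.1% of all tested genes higher in AML and 10% lower. Of 15 tested macrophage markers, 0 rose and 13 fell, and the 16 in the table summed to 96.2 to 183 TPM in AML mice and 442 to 576 TPM in MPN mice. Of 13 dendritic cell markers, 1 rose and 7 fell, with sums of 357 to 908 TPM in AML mice and 1518 to 1781 TPM in MPN mice. Of 7 tested B cell markers 6 fell, and 7 of the 9 in the table stayed below 1 TPM in all AML mice. Of 11 tested markers of mature neutrophils, 0 rose and 9 fell, with sums of 7488 to 21737 TPM in AML mice and 31903 to 50702 TPM in MPN mice. Of 15 markers of T and NK cells, 3 rose and 10 fell. Their sums overlapped, at 382 to 627 TPM in AML mice and 313 to 411 TPM in MPN mice. In every AML mouse most of that sum was Nkg7, at 278 to 472 TPM, against 89.8 to 117 TPM in MPN mice. The others that rose were Thy1, at 80.4 to 217 TPM in AML mice and 4.49 to 5.58 TPM in MPN mice, and Lck. The overlap of the sums therefore says little of the 10 that fell. Of 15 tested stem cell markers, 12 rose and 2 fell, with sums of 2724 to 3485 TPM in AML mice and 569 to 606 TPM in MPN mice. Most of each AML sum was Ifitm1, at 2154 to 2748 TPM in AML mice and 187 to 267 TPM in MPN mice. The 2 that fell were Procr, with means of 4.78 TPM in AML and 11.5 TPM in MPN, and Ly6a, with 23.6 and 120 TPM. Kit did not pass. Of the tested markers of granulocyte-monocyte progenitors 5 of 12 rose and 1 fell, of megakaryocytes 3 of 9 rose, and of the erythroid list 2 of 18 fell. Of mast cell and basophil markers 3 of 6 tested rose, and of stromal and endothelial markers 3 of 5 rose and 1 fell. In the stromal and endothelial list of 10, 6 stayed below 1 TPM in all AML mice and 4 in all MPN mice. In the mast cell and basophil list of 9, 3 did so in AML and 2 in MPN. No marker in the table was at 0 in all 6 mice. The part of these cell types in the changes of Abcg3, Abca9, Abca6 and the other ABC genes was not tested.

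A term for sex, which leaves AML replicate 3, a male, as the AML mouse compared with MPN, left 6 members called, of which 4 were among the 10 called without it, beside 9.88% of all genes. The calls of Abcg3, Abca9, Abca6 and Abca4 stood with this term, and 6 calls ended, with fold changes of the same sign. The log2 fold changes with the term, beside those without it, were -0.93 and -0.91 for Abca13 (adjusted p with the term 0.241), 0.67 and 0.88 for Abca2 (0.0755), and 0.65 and 0.70 for Abcb8 (0.121). They were 0.88 and 1.0 for Abcb9 (0.156), 0.45 and 0.67 for Abcb1b (0.262), and 0.37 and 0.55 for Abcf2 (0.362). With it, Abcb4 passed at -3.63 (adjusted p = 0.0256) and Abcg4 at -3.22 (adjusted p = 0.0209).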

How the data were processed

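RNA of c-Kit+ spleen cells was measured in 6 mice, each with its own library. TPM values per gene symbol were deposited by the authors and are, per the file headers, gene-level RSEM output. RPKM values per Ensembl gene were deposited by the authors as well, with unread genes at a floor above 0, and served as an alternative. Per the submitters' processing notes, the tools were TopHat2, RSEM and Bowtie2 and the builds mm9 and mm10, with no role given for any. TPM keeps no counts, so relative depth was read from the step that 1 read adds to low RPKM values. The AML and MPN mice were set against each other on log2(TPM + 1) with limma 3.58.1 (R 4.3.3), with a mean-variance trend, two-sided, with Benjamini-Hochberg adjustment over 12223 genes, those that reached 1 TPM in 3 or more libraries. Fold changes are on that scale, which understates low genes. The fit was tested on simulated data. Positions are from GENCODE M21 on GRCm38 and promoter windows from RefSeq on GRCm38.p6. For reads shared between genes, stretches of 75 bases were matched across GENCODE transcripts. Replicate numbers follow accession order and pair no mice. The rule names every member and, of each partner list, the 3 tested genes with the smallest p, with any others named after their values were seen. A few genes that it names are not reported here, though the counts include them. Members, role groups and lists were chosen with earlier results of these data known. Each p-value sets a gene's difference between groups against the spread between mice within groups, moderated across genes. Nothing says more of the mice's origin, so that spread is the one between these mice.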

Additional observations from a re-analysis of the deposited data

How the results depend on the processing

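Of the 10 member calls, those of Abcg3, Abca9, Abca6 and Abca4 held under every alternative in which the gene was tested, and no call reversed. With a term for sex, 1 member was higher and 5 lower, and over all genes 673 were higher and 535 lower. With array weights 8 members were lower, and 2131 of all genes. With a filter at 5 TPM 2 members were lower, since Abca6 and Abca13 were then not tested. Leaving out each mouse in turn gave 3 to 6 members higher and 3 to 5 lower, and over all genes 1291 to 2303 higher and 718 to 1402 lower, the lowest of both without MPN replicate 2. The other settings, which were pseudocounts of 0.1 and 5, no filter, median scaling, quantile normalization, RPKM and no trend, gave 4 to 6 members higher and 3 to 5 lower. With a term for sex the calls of Pex7, Pex14, Uros, Iscu, Fdx1l, Pelo, Gspt1 and Denr ended as well (adjusted p of 0.0605 to 0.260), and Iscu also without MPN replicate 2 (0.0593). Elsewhere the cause was not tested. No paired analysis was possible because the replicate numbers follow accession order and the labels pair no mice. Genes under about 1 TPM rest on few reads, most of all in AML replicate 3, the shallowest library.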
